A study of Mus musculus with 70 samples.

Results

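Capicua, encoded by Cic, is a DNA-binding transcriptional repressor that is made in a short and a long isoform. The data described here are the cerebellum at 12 weeks of age of mice without the long isoform (Cic-L-KO, 8 samples) and of wild-type mice (WT, 8 samples), which are 16 of the 70 samples of a study that also sequenced cortex of the same age and lung of pups, and mice without the short isoform (Cic-S-KO). The samples were chosen by tissue and genotype in their titles, and 16643 genes with enough reads to be tested, none of them on chromosome 1, are described. The WT group pools wild-type littermates of the Cic-S-KO and Cic-L-KO lines, and the labels do not say which WT sample came from which line. Allele, strain background and sex are not given in the labels, so that a difference between the lines' backgrounds and an effect of the lost isoform cannot be told apart here. For comparison, 7 Cic-S-KO cerebellum samples and 8 Cic-L-KO and 8 WT cortex samples were used, all with the same batch number as the 16 samples.

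Capicua binds octamers of the form TGAATGAA in gene control regions, together with its partners ATXN1 and ATXN1L, and recruits corepressors. Growth factor receptors acting through RAS and the kinase ERK lift this repression, so that many Capicua targets are also genes of the ERK response, among them PEA3-type ETS factors, Sprouty and Spred inhibitors and MAP kinase phosphatases. In the cerebellum, polyglutamine-expanded ATXN1 acts through Capicua on Purkinje cells in spinocerebellar ataxia. The cerebellum itself is dominated by granule neurons, small glutamatergic cells whose axons contact Purkinje cells, with GABAergic interneurons of the molecular and granular layers, Bergmann glia, oligodendrocytes and vessels.

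The total count per library was between 23315157 and 29611779 reads in Cic-L-KO and between 23615768 and 30464699 in WT. By their Y-linked counts, 4 libraries of each genotype were male and 4 female, so sex was balanced. Granule neuron and Purkinje cell markers were abundant in all 16 libraries, as the tissue label requires, while markers of brainstem and choroid plexus varied widely between libraries of both genotypes. Hoxb3, a gene of the hindbrain, ran from 0 to 1.35 CPM in WT and 0 to 3.67 in Cic-L-KO, where CPM is the count scaled to a common library size by TMM and not corrected for gene length. The first principal component of the 16 libraries held 24.5% of the variance and did not separate the genotypes. Cic-L-KO replicate 4 and WT replicate 6 stood at its ends (the end libraries below). Cic-L-KO replicates 3 and 4 also stood apart, with the lowest summed granule neuron markers of the group (6366 and 6302 CPM, the others 7620 to 8590.4) and the highest summed brainstem markers (46.2 and 40.98 CPM, the others 14.2 to 27.6). Where a call of a named gene ended without either pair of libraries, the value without that pair is given. The same holds where a printed count or median of a list moved by over 1.5 times. Medians that are not printed could move as well. Without the end libraries that of glucocorticoid-responsive genes went from -0.24 to -0.11 and that of potassium channel genes from 0.095 to 0.035. Nothing in the labels says that each sample came from a separate mouse, so p-values measure only the spread between these samples.

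Cic and its partners were examined first, because they check the label of the group. The deposited values count all reads of a gene, so they sum both isoforms and cannot show the loss of the long one. Cic (ENSMUSG00000005442.13, chromosome 7, 25267704 to 25294159, plus strand in GRCm38) ranged from 172 to 212 CPM (median 190.1) in WT and from 195 to 230.3 CPM (median 212) in Cic-L-KO, and 4 of 8 Cic-L-KO libraries exceeded all WT libraries. Its log2 fold change was 0.15 (SE 0.0474, adjusted p = 0.0253) by edgeR's quasi-likelihood test with Benjamini-Hochberg adjustment, the test behind every adjusted p below. This small difference did not hold under several settings: the adjusted p was 0.229 after correction for GC content, 0.0527 without WT replicate 3 and 0.0503 without Cic-L-KO replicate 1. Atxn1, whose product binds Capicua, ranged from 39.8 to 57.6 CPM (median 50.3) in WT and from 52.7 to 73.99 CPM (median 63.5) in Cic-L-KO, with 7 of 8 Cic-L-KO libraries above all WT and a log2 fold change of 0.36 (SE 0.070, adjusted p = 0.000572). Atxn1l ranged from 64.1 to 77.5 CPM (median 76.2) in WT and from 70.3 to 83.8 CPM (median 73.5) in Cic-L-KO and did not pass the test (a log2 fold change of 0.0075 with SE 0.0453, adjusted p = 0.928). Of 17 genes of the repressor complex and its kinases, 4 were higher and 3 lower, or 41.2% past the test, beside 21.5% of all tested genes. The corepressor gene Tle3 was lower at -0.26 (SE 0.0627, adjusted p = 0.0044), with 4 of 8 Cic-L-KO libraries below WT.

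Over all tested genes, 3580 (21.5%) differed between Cic-L-KO and WT at an adjusted p under 0.05 (the call rule used throughout), of which 1817 (10.9%) were higher and 1763 (10.6%) lower in Cic-L-KO. The changes were small and unequal in size between directions. The median absolute log2 fold change was 0.29 among the higher genes and 0.20 among the lower ones, and of the 505 called genes (3.03%) that moved by 0.5 or more on the log2 scale, 398 were higher and 107 lower. All 8 Cic-L-KO libraries lay above all 8 WT libraries for 385 genes (2.31% of those tested) and below them for 274 genes (1.65%). The median over all tested genes was 0.0038 on the log2 scale.

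**Figure D1:**
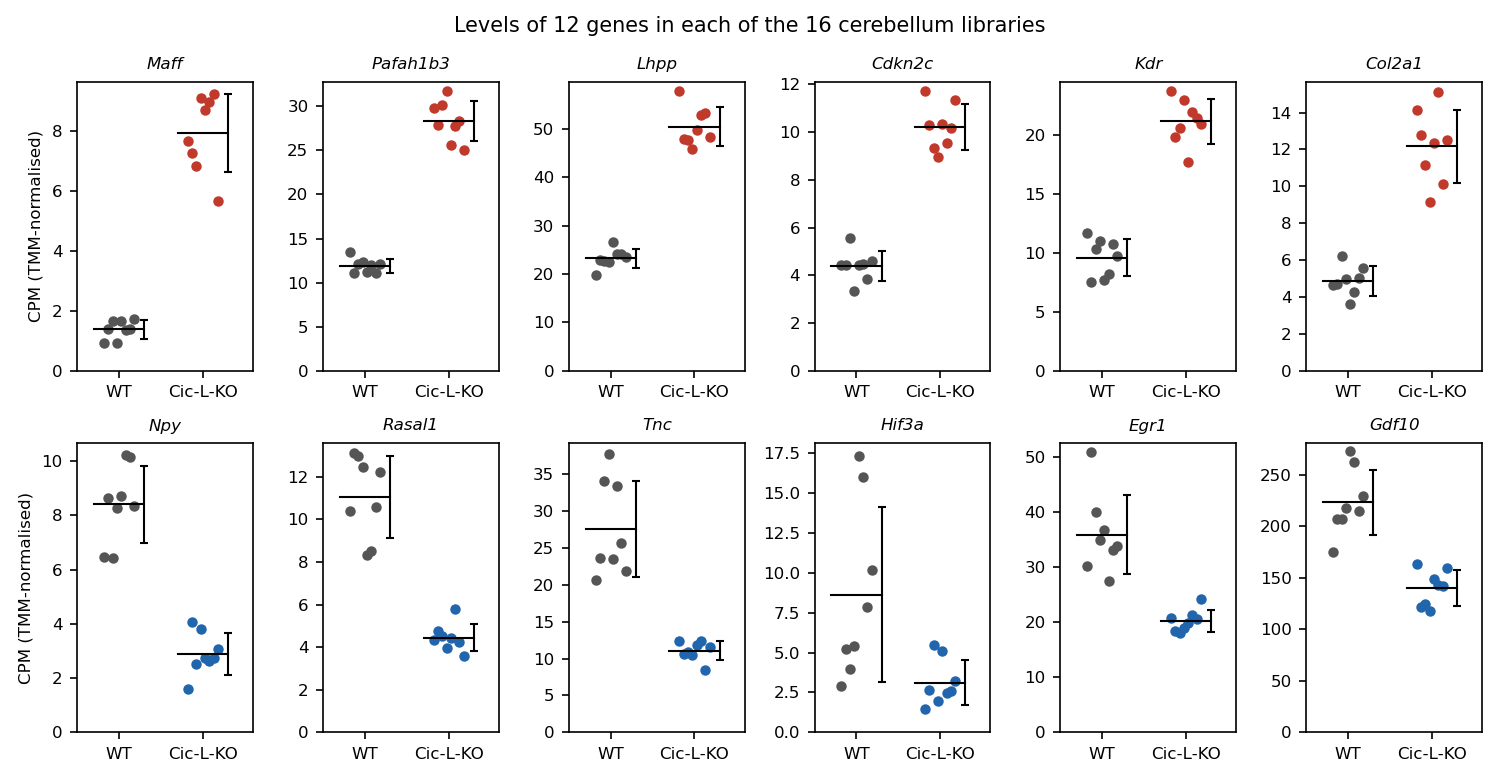
TMM-normalised CPM (y axis, from 0) of 12 genes in each of the 8 WT (grey) and 8 Cic-L-KO cerebellum libraries (red where higher, blue where lower); the line is the mean and the bar 1 SD on each side. The groups do not overlap except for Hif3a, whose WT libraries run from 2.93 to 17.3 CPM.

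Maff, which encodes a small Maf leucine zipper factor without an activation domain of its own, had the largest rise among genes with a mean of at least 1 log2 CPM. It ranged from 0.925 to 1.73 CPM (median 1.41) in WT and from 5.67 to 9.24 CPM (median 8.18) in Cic-L-KO, with all 8 Cic-L-KO libraries above WT, and its log2 fold change was 2.51 (SE 0.176, adjusted p = 1.53e-10). The gene (ENSMUSG00000042622.14, chromosome 15, 79346621 to 79359076, plus strand in GRCm38) has more than 1 start in RefSeq, and the promoter of an alternative start, printed below, holds a Capicua octamer across that start.

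To show what a Capicua octamer looks like in genes of the ERK response, stretches of 120 bases at the start of 4 listed genes are given 5′ to 3′ in the direction of the gene, from RefSeq in GRCm38.p6, with the octamer in capitals, also where it lies on the other strand (Dusp6 and Spry2). Maff rose in Cic-L-KO cerebellum, and the other 3 did not pass the test.
Maff: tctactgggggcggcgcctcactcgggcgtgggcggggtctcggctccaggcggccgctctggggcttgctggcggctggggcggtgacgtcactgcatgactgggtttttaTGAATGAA
Dusp6: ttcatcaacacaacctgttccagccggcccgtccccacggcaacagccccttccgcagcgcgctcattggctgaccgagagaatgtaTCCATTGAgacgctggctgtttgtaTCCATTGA
Spred3: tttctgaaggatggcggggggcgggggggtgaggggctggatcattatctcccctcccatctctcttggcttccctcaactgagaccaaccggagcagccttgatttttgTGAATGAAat
Spry2: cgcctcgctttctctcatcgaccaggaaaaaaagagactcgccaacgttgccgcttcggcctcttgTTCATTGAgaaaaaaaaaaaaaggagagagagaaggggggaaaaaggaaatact
They lie at chr15:79347406-79347525, plus strand, at chr10:99263120-99263239, plus strand, at chr7:29168648-29168767, minus strand and at chr14:105896820-105896939, minus strand. The octamers searched were TGAATGAA, TGAATGGA, TCAATGAA and TCAATGGA on both strands of windows from 250 bases before to 50 after each start, and they differ from each other in 1 or 2 letters. One or more of them was present in 3.84% of all 32851 promoter windows. Of the 25 tested genes of the ERK response list, 15 had a promoter by symbol and 5 of these held an octamer, namely these 4 and Ptpn9. Only 69.7% of the tested genes had a promoter, under the 80% needed, so a comparison of octamer shares between higher, lower and other genes is void. An octamer is a match of letters and was not measured as a bound site here.

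The ERK response list, which names 26 genes (25 with enough reads, all but Hmga2) that are known in other systems as targets of Capicua or of ERK signalling, gave 7 higher and 2 lower genes, against 10.9% and 10.6% of all genes, with a median log2 fold change of 0.092. It gave 5 higher and 1 lower without the end libraries, and the same counts without Cic-L-KO replicates 3 and 4. Among the transcription factor genes, Etv4, a PEA3-type ETS factor, ranged from 17.3 to 20.4 CPM (median 18.9) in WT and from 20.3 to 27.5 CPM (median 23.4) in Cic-L-KO. It rose by 0.31 (SE 0.0575, adjusted p = 0.000409) with 7 of 8 libraries above WT. Its relative Etv5 ranged from 59.8 to 117 CPM (median 95.5) in WT and from 88.03 to 129.8 CPM (median 111) in Cic-L-KO and did not pass (a log2 fold change of 0.29 with SE 0.144, adjusted p = 0.159). Etv1, an ETS gene of granule neurons, went the other way, ranging from 429.6 to 631 CPM (median 503) in WT and from 336 to 475 CPM (median 441) in Cic-L-KO, and was lower at -0.34 (SE 0.0943, adjusted p = 0.0121), a call that ended without the end libraries (adjusted p = 0.06) or without Cic-L-KO replicates 3 and 4 (adjusted p = 0.0633), and lay at the threshold after the GC correction (adjusted p = 0.05).

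Of the feedback inhibitors in the list, the Sprouty genes Spry1, Spry2, Spry3 and Spry4 and the Spred genes Spred1, Spred2 and Spred3 did not pass the test, with log2 fold changes between -0.13 for Spry1 and 0.24 for Spry4. The phosphatase genes split. Dusp4, which encodes a nuclear MAP kinase phosphatase, ranged from 9.42 to 21.5 CPM (median 16.5) in WT and from 20.04 to 35.03 CPM (median 30.6) in Cic-L-KO, with 7 of 8 libraries above WT, and rose by 0.88 (SE 0.194, adjusted p = 0.00269). Dusp7, for a cytoplasmic ERK phosphatase, was lower at -0.19 (SE 0.0588, adjusted p = 0.0211), which without WT replicate 4 became an adjusted p of 0.0613. Dusp6, the cytoplasmic phosphatase most often used as a readout of ERK activity, ranged from 19.7 to 32.8 CPM (median 28.4) in WT and from 22.96 to 32.7 CPM (median 30.98) in Cic-L-KO with overlapping groups and a log2 fold change of 0.097 (SE 0.113, adjusted p = 0.587).

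The remaining members that rose were genes of signalling and growth. Shc3, a neuronal adaptor between receptors and RAS, ranged from 19.2 to 26.3 CPM (median 22.5) in WT and from 27.7 to 43.01 CPM (median 33.3) in Cic-L-KO, and all 8 Cic-L-KO libraries exceeded WT (a log2 fold change of 0.57 with SE 0.0788, adjusted p = 1.48e-05). Ccnd1, the gene of cyclin D1, ranged from 20.1 to 30.6 CPM (median 24.5) in WT and from 30.1 to 39.6 CPM (median 33.96) in Cic-L-KO and rose by 0.47 (SE 0.0778, adjusted p = 0.000116). Ccnd2, for cyclin D2, rose by 0.51 (SE 0.15, adjusted p = 0.0175), a call that ended without the end libraries (adjusted p = 0.0672) and without Cic-L-KO replicates 3 and 4 (adjusted p = 0.0633). Choroid plexus markers moved with Ccnd2 in both genotypes: in WT, Ccnd2 ran from 10.7 CPM in replicate 6, with the lowest summed choroid markers (42.4 CPM), to 17.99 in replicate 4, with the highest (3139 CPM), and in Cic-L-KO replicate 7 was highest in both (28.8 and 3616 CPM). Their part in the result was not tested. Vgf, which encodes a neurotrophin-induced granin-like precursor, ranged from 32.8 to 63.03 CPM (median 42.7) in WT and from 52.3 to 120.1 CPM (median 68.4) in Cic-L-KO with a log2 fold change of 0.70 (SE 0.201, adjusted p = 0.0165). Its highest value came from Cic-L-KO replicate 4, and the adjusted p was 0.0575 without the end libraries and 0.0898 without Cic-L-KO replicates 3 and 4.

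**Figure D2:**
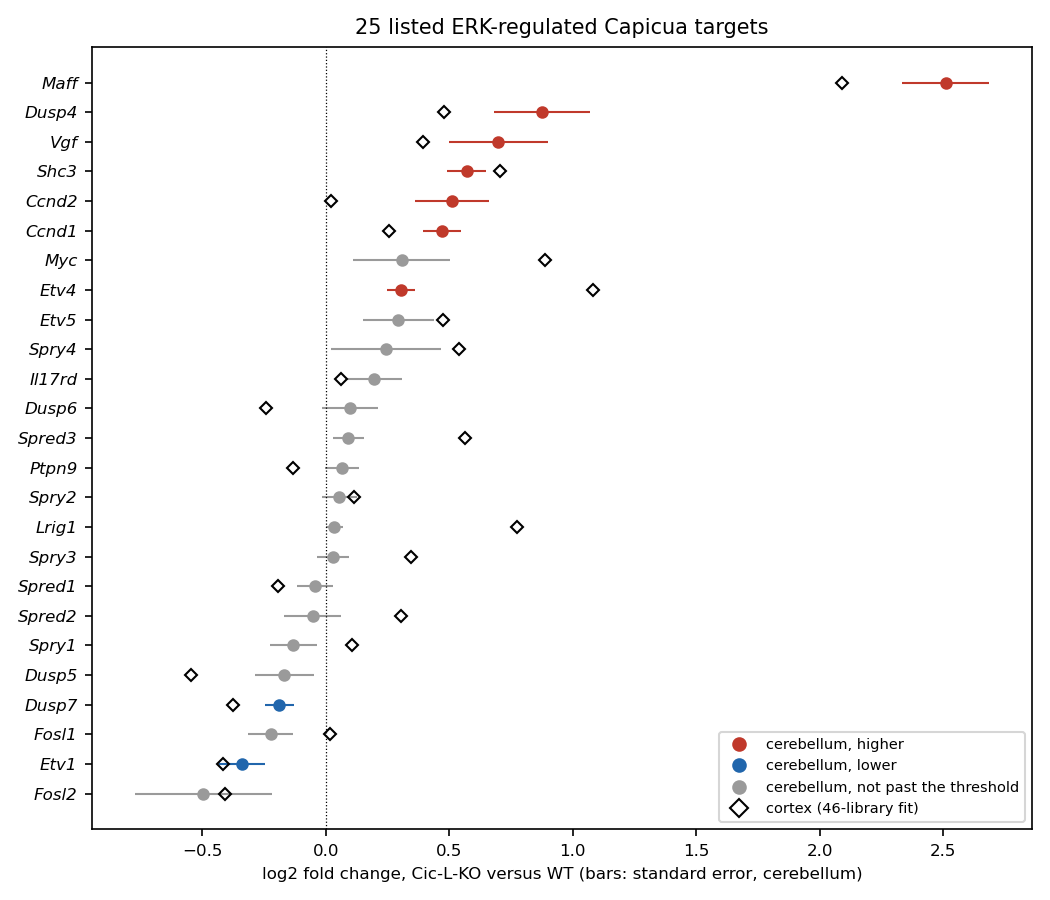
Log2 fold change of Cic-L-KO against WT (x axis) for each of the 25 tested genes of the ERK response list in cerebellum (circles with standard error bars, coloured by the adjusted p threshold of 0.05), and the same in cortex (open diamonds, from the fit over 46 libraries). In cerebellum 7 genes are higher, led by Maff at 2.51, and Etv1 and Dusp7 are lower.

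Of the 12 largest rises, 10 had every Cic-L-KO library above every WT library. Cdkn2c, for the p18 inhibitor of the cyclin D kinases, ranged from 3.35 to 5.56 CPM (median 4.43) in WT and from 8.97 to 11.7 CPM (median 10.2) in Cic-L-KO and rose by 1.22 (SE 0.0961, adjusted p = 1.31e-09). Pafah1b3 (ENSMUSG00000005447.12, chromosome 7, 25295049 to 25297986, minus strand in GRCm38), for a catalytic subunit of the platelet-activating factor acetylhydrolase of the brain, ranged from 11.05 to 13.5 CPM (median 12.03) in WT and from 25.02 to 31.8 CPM (median 28.1) in Cic-L-KO and rose by 1.25 (SE 0.0624, adjusted p = 4.63e-14). Pafah1b3 is the neighbour of Cic on the other strand, and whether counting used strand is not given in the sources used here, so its value carries that limit. Lhpp, for a phosphatase of phosphohistidine and inorganic pyrophosphate, ranged from 19.8 to 26.6 CPM (median 23.2) in WT and from 45.7 to 57.9 CPM (median 49.04) in Cic-L-KO, and its rise of 1.12 (SE 0.0526, adjusted p = 1.93e-14) had the smallest p of all genes. Hsd17b12, an enzyme of fatty acid elongation, ranged from 108 to 133 CPM (median 115) in WT and from 163 to 195 CPM (median 184) in Cic-L-KO and rose by 0.63 (SE 0.045, adjusted p = 1.53e-10), and Cotl1, an actin-binding protein gene, rose by 0.48 (SE 0.0355, adjusted p = 3.30e-10). Hsd17b12 and Cotl1 are among the 6 rises with the smallest p, not among the 12 largest. These 5 genes showed no overlap between the genotypes.

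Further large rises were seen in Col2a1, for type II collagen (1.32), in Emp1, an epithelial membrane protein gene (1.24), in Akr1c14, a steroid dehydrogenase gene (1.06), and in Vmn2r2, a vomeronasal receptor gene (1.52). Vmn2r2 and Akr1c14 belong to families of similar genes among which counting may divide reads, so their values are uncertain. Cpne4, for a calcium-dependent membrane-binding protein, ranged from 1.36 to 5.63 CPM (median 2.49) in WT and from 6.12 to 9.37 CPM (median 6.71) in Cic-L-KO, where WT replicate 1 gave the highest WT value, and rose by 1.42 (SE 0.248, adjusted p = 0.000298). Cd74, the invariant chain of MHC class II, rose by 1.05 (SE 0.182, adjusted p = 0.000198) with 7 of 8 libraries above WT. Nid2, a basement membrane gene, rose by 1.20 (SE 0.303, adjusted p = 0.00689) with 5 of 8 above WT. These 5 libraries, Cic-L-KO replicates 2, 3, 4, 7 and 8, had 8.5 to 17.4 CPM of Nid2 and summed choroid plexus markers of 1945 to 3616 CPM, and the other 3 had 4.32 to 5.81 CPM and 476 to 639.95 CPM. In WT, replicate 4, with the highest choroid markers, was also highest for Nid2 (7.77 CPM), and the part of choroid plexus in this rise was not tested. In each sex alone Nid2 did not pass (adjusted p = 0.109 in males and 0.0694 in females).

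Among the genes that fell, the neuropeptide gene Npy had the largest change. It ranged from 6.45 to 10.2 CPM (median 8.5) in WT and from 1.59 to 4.09 CPM (median 2.74) in Cic-L-KO, without overlap, and its log2 fold change was -1.54 (SE 0.145, adjusted p = 4.67e-08). Rasal1, for a GTPase-activating protein that switches RAS off, ranged from 8.32 to 13.1 CPM (median 11.4) in WT and from 3.56 to 5.78 CPM (median 4.38) in Cic-L-KO and fell to a log2 fold change of -1.31 (SE 0.106, adjusted p = 2.03e-09). Tnc, for the matrix glycoprotein tenascin-C, which Bergmann glia make, ranged from 20.7 to 37.7 CPM (median 24.6) in WT and from 8.46 to 12.4 CPM (median 11.2) in Cic-L-KO, again without overlap (a log2 fold change of -1.32 with SE 0.127, adjusted p = 2.00e-07). Hif3a, a hypoxia-inducible factor subunit gene that glucocorticoids also raise, varied within both genotypes, from 2.93 to 17.3 CPM (median 6.65) in WT and from 1.47 to 5.46 CPM (median 2.63) in Cic-L-KO, with 5 of 8 Cic-L-KO libraries below WT and a log2 fold change of -1.47 (SE 0.376, adjusted p = 0.00753). In males alone the value of Hif3a was -0.59 (adjusted p = 0.366) and in females alone -1.95 (adjusted p = 0.00416). Thus 3 of these 4 genes separated the genotypes completely and the fourth did not.

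Others in this group were Crebrf, a regulator of CREB3 factors (a log2 fold change of -0.53 with SE 0.0496, adjusted p = 3.24e-08), Ptpn3, a tyrosine phosphatase gene (a log2 fold change of -0.58 with SE 0.056, adjusted p = 4.67e-08), and Nab2, a corepressor of EGR factors (a log2 fold change of -0.85 with SE 0.0823, adjusted p = 5.10e-08), each with all 8 Cic-L-KO libraries below WT. Of the 12 largest falls, 8 were without overlap. They took in Car9, a membrane carbonic anhydrase gene (-0.86), Vipr1, a receptor gene for vasoactive intestinal peptide (-0.88), Prom2, for prominin 2 (-0.87), and the long noncoding RNA Gm39465 (-0.95). Gm15083 (-1.37) is an antisense gene in the annotation, where reads of both strands may be mixed. Syt6, a synaptotagmin gene (-0.89), and Myo15, an unconventional myosin gene (-0.86), each had 7 of 8 Cic-L-KO libraries below WT. The call of Nr4a2, an orphan nuclear receptor gene, was weak: it ranged from 15.5 to 87.5 CPM (median 40.8) in WT and from 12.3 to 29.5 CPM (median 22.5) in Cic-L-KO (a log2 fold change of -0.95 with SE 0.326, adjusted p = 0.0417), and the adjusted p was between 0.0504 and 0.111 when any 1 of WT replicates 2, 3, 5, 7 and 8 or Cic-L-KO replicates 2, 3, 4, 7 and 8 was left out, 0.0735 without the end libraries and 0.139 without Cic-L-KO replicates 3 and 4.

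Cell type markers were read next, and their counts stand beside 10.9% of all genes called higher and 10.6% called lower. In bulk tissue, fewer cells of a type and less RNA per cell cannot be told apart. Granule neuron genes were lower: 10 of 20 passed and 0 were higher, with a median log2 fold change of -0.25, and their summed level was 7903 to 10252 CPM in WT and 6302 to 8590.4 in Cic-L-KO, so the groups overlapped. Without Cic-L-KO replicates 3 and 4, the libraries with the lowest granule neuron and the highest brainstem markers, 6 of 20 were lower and the median was -0.15, and without the end libraries 8 were lower (median -0.21). The part of brainstem tissue in this difference was not tested. Calb2, for calretinin, ranged from 341 to 455 CPM (median 373) in WT and from 253 to 329 CPM (median 304) in Cic-L-KO and fell to -0.39 (SE 0.0832, adjusted p = 0.0017) with no overlap. Pax6, a transcription factor of the granule lineage, ranged from 125 to 163 CPM (median 149) in WT and from 100.1 to 128 CPM (median 122) in Cic-L-KO (a log2 fold change of -0.33 with SE 0.0703, adjusted p = 0.00179). Slc17a7, the vesicular glutamate transporter of parallel fibres, ranged from 566 to 679 CPM (median 625.4) in WT and from 403 to 594 CPM (median 516) in Cic-L-KO (a log2 fold change of -0.31 with SE 0.075, adjusted p = 0.00411), and Rbfox3, which encodes NeuN, had a log2 fold change of -0.32 (SE 0.0712, adjusted p = 0.0021). By sex, 11 of the 20 were lower in males alone and 1 in females alone, with medians of -0.37 and -0.15. Cic-L-KO replicates 3 and 4 are both among the 4 male Cic-L-KO libraries, and their part in this gap between the sexes was not tested. Over all genes, 0 passed the male-minus-female test of the effect at an adjusted p under 0.05 (0.0% of 16643, edgeR), while 1207 (7.25%) had an unadjusted p under 0.05.

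Genes of GABAergic interneurons moved in the other direction. Of 17 tested, 10 were higher and 0 lower, with a median of 0.27, and the summed level was 2949 to 3368 CPM in WT and 3556 to 4243 CPM in Cic-L-KO, without overlap. Without Cic-L-KO replicates 3 and 4 the count was 8 and the median 0.16. Slc32a1, the vesicular GABA transporter, ranged from 159 to 172 CPM (median 166) in WT and from 194 to 234 CPM (median 218) in Cic-L-KO and rose by 0.38 (SE 0.0481, adjusted p = 3.79e-06). Sorcs3, a sorting receptor gene of molecular layer interneurons, ranged from 32.4 to 38.2 CPM (median 35.5) in WT and from 44.6 to 53.7 CPM (median 49.9) in Cic-L-KO (a log2 fold change of 0.49 with SE 0.0713, adjusted p = 3.03e-05). Ptprk and Lypd6, for a receptor phosphatase and a nicotinic receptor modulator, rose by 0.50 and 0.41, and all 4 genes had 8 of 8 Cic-L-KO libraries above WT. The GABA-synthesizing enzyme genes Gad1 and Gad2, outside the rule for named genes and chosen after their values were seen, rose by 0.27 and 0.18.

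Few genes of Purkinje cells, the neurons lost in this ataxia, passed the test. Of 25 tested, 0 were higher and 2 lower, the median was 0.0096, and the summed level was 13583 to 18599 CPM in WT and 15299.9 to 19605 in Cic-L-KO. Without either pair of libraries 1 was lower, with medians of 0.057 without the end libraries and 0.032 without Cic-L-KO replicates 3 and 4. Both that passed are phospholipase C genes downstream of the metabotropic glutamate receptor. Plcb4 ranged from 432 to 580.3 CPM (median 515) in WT and from 396 to 479 CPM (median 451) in Cic-L-KO (a log2 fold change of -0.22 with SE 0.0568, adjusted p = 0.00545). Plcb3 was lower at -0.19 (SE 0.062, adjusted p = 0.0316), and its adjusted p was between 0.0549 and 0.0758 when any 1 of WT replicates 4, 6 and 8 or Cic-L-KO replicates 2, 3, 4 and 5 was left out, 0.137 without the end libraries and 0.146 without Cic-L-KO replicates 3 and 4. Of 34 ataxia genes, 4 were higher and 5 lower, a share of 26.5% near the 21.5% of all genes. Besides Atxn1 these included Elovl5, a fatty acid elongase gene (higher, a log2 fold change of 0.29 with SE 0.0451, adjusted p = 5.06e-05), and Atm, for the DNA damage kinase (lower, a log2 fold change of -0.38 with SE 0.053, adjusted p = 1.29e-05).

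Glia gave a mixed picture. Among 19 astrocyte and Bergmann glia genes, 5 were higher and 3 lower (6 and 5 after the GC correction described below). Gja1, the connexin of astrocyte gap junctions, ranged from 301 to 343 CPM (median 324) in WT and from 375 to 465.8 CPM (median 413) in Cic-L-KO and rose by 0.36 (SE 0.0387, adjusted p = 3.13e-07), and Ntsr2, a neurotensin receptor gene of astrocytes, rose by 0.37 (SE 0.0461, adjusted p = 2.82e-06). Gdf10, a growth factor gene of Bergmann glia, ranged from 175 to 273 CPM (median 216) in WT and from 117 to 163 CPM (median 143) in Cic-L-KO and fell to -0.67 (SE 0.0954, adjusted p = 3.86e-05), and the water channel gene Aqp4 fell to -0.22 (SE 0.0469, adjusted p = 0.00124). The groups did not overlap for Gja1, Gdf10 and Aqp4. Of 24 genes of myelinating oligodendrocytes, 4 were higher and 0 lower (16.7%, beside 21.5% of all genes called). Without the end libraries or without Cic-L-KO replicates 3 and 4, 0 were higher. Precursor cells had 1 of 14 genes higher, Pdgfra (adjusted p = 0.0703 without the end libraries and 0.0815 without Cic-L-KO replicates 3 and 4), and 1 lower, Gpr17, a receptor gene of committed precursors (a log2 fold change of -0.45 with SE 0.105, adjusted p = 0.00278). Microglia had 3 of 15 genes higher and 0 lower (20%), and 1 higher without either pair of libraries.

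Genes of vessels rose together. Of 15 endothelial and mural genes 11 were higher and 0 lower (73.3%, beside 21.5% of all genes), with a median of 0.44. Their summed level was 285 to 332 CPM in WT and 376 to 406 CPM in Cic-L-KO, with no overlap. Kdr, the main receptor for vascular endothelial growth factor, ranged from 7.5 to 11.6 CPM (median 10.04) in WT and from 17.7 to 23.7 CPM (median 21.2) in Cic-L-KO and rose by 1.14 (SE 0.103, adjusted p = 1.87e-08). Flt1, the other receptor of that ligand, ranged from 43.5 to 50.5 CPM (median 46.2) in WT and from 60.7 to 78.3 CPM (median 67.1) in Cic-L-KO (a log2 fold change of 0.55 with SE 0.0848, adjusted p = 7.06e-05). Cdh5 and Tie1, for the endothelial cadherin and an angiopoietin coreceptor, rose by 0.64 and 0.55. All 8 Cic-L-KO libraries exceeded WT for each of these 4 genes. Meningeal genes rose as well, 7 of 10 with a median of 0.43 and a summed level of 134.5 to 182 CPM in WT and 177 to 233 in Cic-L-KO, which overlapped. Slc6a13, a GABA transporter gene of the meninges, ranged from 11.4 to 20.1 CPM (median 15.2) in WT and from 21.8 to 27.8 CPM (median 24.8) in Cic-L-KO (a log2 fold change of 0.70 with SE 0.107, adjusted p = 5.02e-05). Blood markers stood at 91.2 to 333 CPM in WT and 156 to 369 in Cic-L-KO, with 0 of 5 past the test. Their median log2 fold change was 0.36, with all 5 positive. Choroid plexus markers stood at 42.4 to 3139 CPM in WT and 476 to 3616 in Cic-L-KO, with 0 of 8 past the test. Their median was 0.73, with 7 positive and 1 negative. Summed vascular levels were above all WT libraries in all 8 Cic-L-KO libraries. They were 386 to 406 CPM in replicates 1, 5 and 6, which had the lowest choroid markers of the group (476 to 639.95 CPM). The part of choroid plexus, meninges or blood left on the tissue in the vascular difference was not tested.

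**Figure D3:**
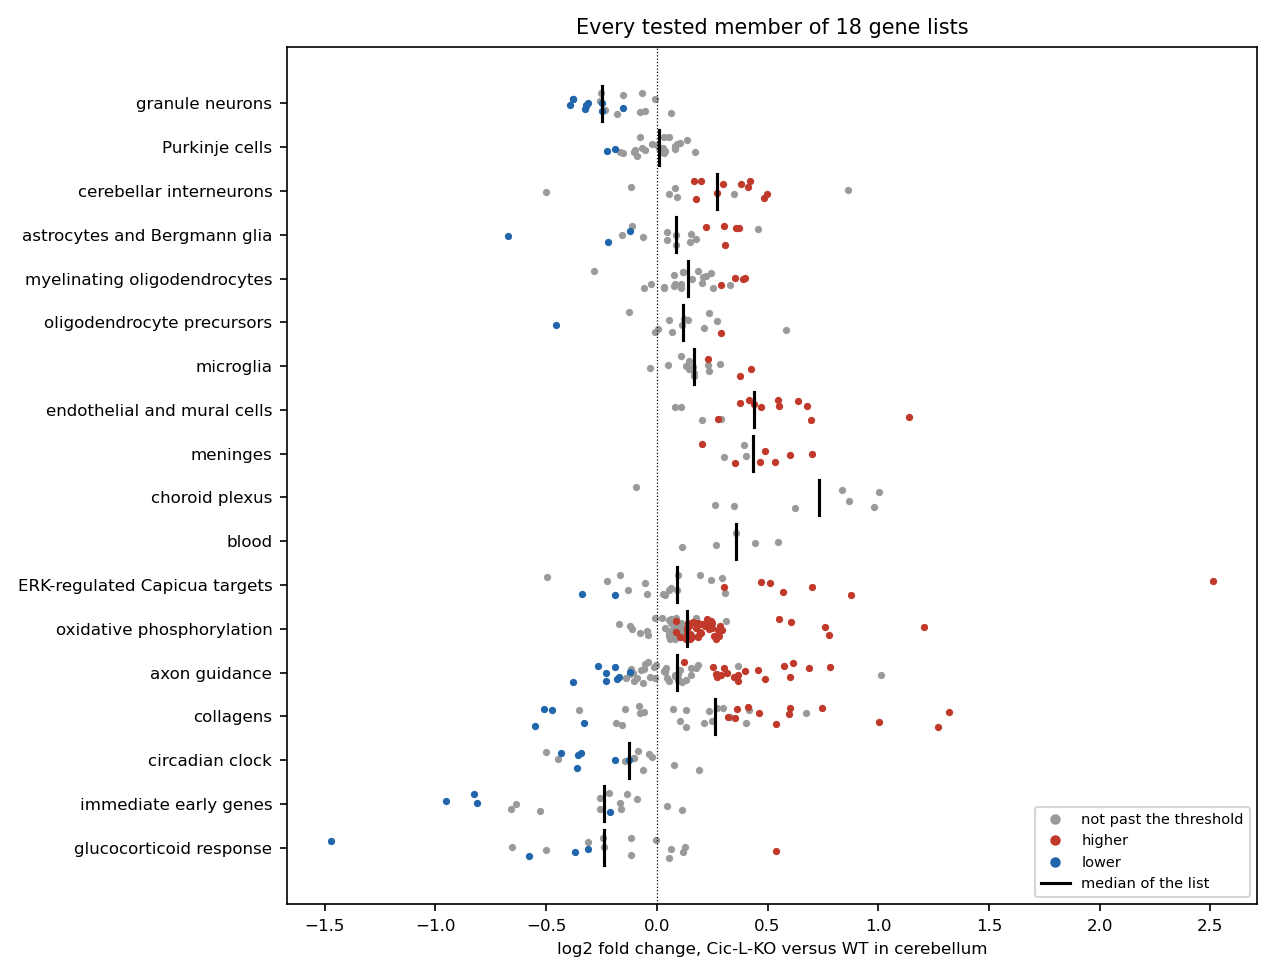
Log2 fold change of Cic-L-KO against WT in cerebellum (x axis) for every tested member of 18 gene lists (rows; vertical position within a row is arbitrary), coloured by direction where the adjusted p was under 0.05, with the median of each list as a black bar. Granule neuron genes lie to the left (median -0.25) and vascular and interneuron genes to the right (medians 0.44 and 0.27).

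Receptor and channel lists were called at shares of 15.8% to 33.3%, beside 21.5% of all genes. Of 24 glutamate receptor genes 6 were higher and 2 lower (33.3%). Grin2b, an NMDA receptor subunit gene low in mature granule neurons, ranged from 35.9 to 42.4 CPM (median 37.96) in WT and from 44.6 to 68.9 CPM (median 53.3) in Cic-L-KO and rose by 0.50 (SE 0.084, adjusted p = 0.000165) without overlap, and Grin2d rose by 0.43 (SE 0.0863, adjusted p = 0.000817). The kainate receptor genes parted, with Grik1 higher (a log2 fold change of 0.29 with SE 0.0497, adjusted p = 0.000138) and Grik2 lower (a log2 fold change of -0.42 with SE 0.0706, adjusted p = 0.000163). Without the end libraries 1 of 19 GABA and glycine receptor genes was higher and 2 lower. With all libraries 0 were higher and 3 lower (15.8%). Among them were Gabra6, the subunit of granule neurons, which ranged from 599 to 846 CPM (median 734) in WT and from 450.3 to 638 CPM (median 586) in Cic-L-KO (a log2 fold change of -0.38 with SE 0.0946, adjusted p = 0.0062) and Gabrb2. The call of Gabrb2 ended without the end libraries (adjusted p = 0.0711) and without Cic-L-KO replicates 3 and 4 (adjusted p = 0.0794). Of 29 sodium and calcium channel genes 2 were higher and 6 lower (27.6%), and 1 higher without either pair of libraries, with the L-type channel gene Cacna1c at -0.33 (SE 0.0662, adjusted p = 0.000929) and Cacna2d3, for an auxiliary subunit, at 0.33 (SE 0.0551, adjusted p = 0.000101). Of 67 potassium channel genes 7 were higher and 10 lower (25.4%). These were 5 and 6 without the end libraries, and 4 and 7 without Cic-L-KO replicates 3 and 4. Kcnq3, for a subunit of the channels of the M-current, ranged from 47.1 to 56.4 CPM (median 51.8) in WT and from 58.3 to 79.4 CPM (median 65.5) in Cic-L-KO without overlap and was higher (a log2 fold change of 0.35 with SE 0.0668, adjusted p = 0.000464).

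Of 19 neuropeptide and granule protein genes 6 rose and 1, Npy, fell (36.8%, beside 21.5% of all genes), with a median of 0.38. These values moved with few libraries: without Cic-L-KO replicates 3 and 4, 3 were higher and 3 lower with a median of 0.045, and without the end libraries 4 and 1 with 0.13. In females alone 2 were higher and 2 lower. Penk, the enkephalin precursor gene of Golgi cells and other neurons, ranged from 55.6 to 66.7 CPM (median 61.3) in WT and from 72.1 to 102 CPM (median 81.6) in Cic-L-KO and rose by 0.43 (SE 0.0545, adjusted p = 3.78e-06). Scg3, a secretory granule gene, ranged from 401 to 476 CPM (median 429.9) in WT and from 504 to 591 CPM (median 528) in Cic-L-KO (a log2 fold change of 0.30 with SE 0.0371, adjusted p = 2.16e-06), and Pnoc, the nociceptin precursor gene, rose by 0.69 (SE 0.179, adjusted p = 0.00654). All 8 Cic-L-KO libraries exceeded WT for these 3 genes. In females alone Pnoc did not pass (adjusted p = 0.272).

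Genes that respond to neuronal activity and hormones, and clock genes, were called lower more often than higher. The shares called were 25% of immediate early, 29.4% of glucocorticoid-responsive and 35.3% of clock genes. Of all tested genes 21.5% were called, made up of 10.9% higher and 10.6% lower. The share of immediate early genes called in either direction thus lay near that of all genes. Of 16 immediate early genes 0 were higher and 4 lower, and 2 were lower without either pair of libraries. Egr1, a zinc finger factor induced through ERK, ranged from 27.4 to 50.9 CPM (median 34.3) in WT and from 18.04 to 24.3 CPM (median 20.2) in Cic-L-KO and fell to -0.82 (SE 0.123, adjusted p = 6.82e-05) without overlap, and its relative Egr4 fell to -0.81 (SE 0.173, adjusted p = 0.00146). Jun, which was called beside Egr1, Egr4 and Nr4a2, was lower at -0.21 (SE 0.0689, adjusted p = 0.028), with an adjusted p between 0.0522 and 0.0684 when any 1 of WT replicates 2 and 5 or Cic-L-KO replicates 2, 3 and 4 was left out, 0.0888 without the end libraries and 0.145 without Cic-L-KO replicates 3 and 4. Of 17 glucocorticoid-responsive genes 1 was higher, Pdk4 (a log2 fold change of 0.54 with SE 0.109, adjusted p = 0.000895), and 4 were lower, among them Hif3a, Sgk1, a serum- and glucocorticoid-induced kinase gene (a log2 fold change of -0.58 with SE 0.139, adjusted p = 0.00499), and Klf9, which ranged from 228 to 288 CPM (median 239) in WT and from 167 to 209 CPM (median 190.1) in Cic-L-KO (a log2 fold change of -0.37 with SE 0.0552, adjusted p = 3.27e-05). Without the end libraries 2 were higher and 4 lower. Of 17 clock genes 0 were higher and 6 lower, and 3 were lower without Cic-L-KO replicates 3 and 4. Per3 ranged from 32.4 to 50.2 CPM (median 38.4) in WT and from 22.5 to 34.95 CPM (median 30.9) in Cic-L-KO (a log2 fold change of -0.36 with SE 0.0859, adjusted p = 0.00382), Nr1d2, a repressor of the clock, from 178 to 281 CPM (median 214) in WT and from 137 to 201 CPM (median 176) in Cic-L-KO (a log2 fold change of -0.36 with SE 0.0925, adjusted p = 0.00775), and the output factor Tef from 228 to 362 CPM (median 278) in WT and from 208 to 267 CPM (median 229) in Cic-L-KO (a log2 fold change of -0.34 with SE 0.0845, adjusted p = 0.00546). These 3 clock genes overlapped between the genotypes.

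Nuclear genes of oxidative phosphorylation shifted upward by small amounts. Of 85 tested, 45 were higher and 0 lower (52.9%, beside 21.5% of all genes), with a median of 0.14. Without Cic-L-KO replicates 3 and 4, 31 were higher with a median of 0.099. Ndufb10, a subunit gene of complex I, ranged from 117 to 137 CPM (median 127) in WT and from 137 to 164 CPM (median 147) in Cic-L-KO (a log2 fold change of 0.23 with SE 0.0392, adjusted p = 0.000141), and Uqcr11, of complex III, ranged from 50.5 to 67.3 CPM (median 58.96) in WT and from 66.2 to 77.4 CPM (median 71.9) in Cic-L-KO (a log2 fold change of 0.28 with SE 0.0488, adjusted p = 0.000174). Cox6b2, an isoform gene of complex IV best known from testis, ranged from 6.08 to 7.86 CPM (median 7.15) in WT and from 10.9 to 14.3 CPM (median 11.5) in Cic-L-KO and rose by 0.76 (SE 0.0885, adjusted p = 1.10e-06). Cox6a2 and Cox8b, isoform genes best known from muscle and chosen after their values were seen, rose by 0.78 and 1.20. In males alone 45 of the 85 were higher and in females alone 11, with medians of 0.19 and 0.084. The males include Cic-L-KO replicates 3 and 4, and the part of these libraries in the gap was not tested. Ribosomal protein genes gave 3 higher and 4 lower of 76 (9.21%), with a median of 0.0038. Without Cic-L-KO replicates 3 and 4 they gave 1 higher and 11 lower, with a median of -0.028. Without the end libraries 2 were higher and 6 lower, with a median of -0.0088. Of 21 cholesterol synthesis genes 2 were higher and 1 lower (14.3%).

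Genes of axon guidance and of the matrix moved in both directions. Of 62 guidance genes 18 were higher and 8 lower (41.9%, beside 21.5% of all genes). These counts were 14 and 4 without the end libraries, and 13 and 4 without Cic-L-KO replicates 3 and 4. Sema3e, a secreted semaphorin gene, ranged from 23.3 to 26.97 CPM (median 25.3) in WT and from 33.6 to 46.8 CPM (median 38.5) in Cic-L-KO (a log2 fold change of 0.62 with SE 0.0729, adjusted p = 1.57e-06), and Robo1, a Slit receptor gene, ranged from 26.1 to 32.3 CPM (median 28.7) in WT and from 37.9 to 48.1 CPM (median 43.6) in Cic-L-KO (a log2 fold change of 0.57 with SE 0.074, adjusted p = 5.89e-06). Plxna4, a semaphorin receptor gene, and Efna1, an ephrin gene, rose by 0.40 and 0.69, and all 8 Cic-L-KO libraries exceeded WT for each of these 4. Of 36 collagen genes 12 were higher and 4 lower (44.4%), with a median of 0.26, or 0.14 without the end libraries. Col27a1, a fibrillar collagen gene, rose by 0.60 (SE 0.0976, adjusted p = 0.000101), while Col5a1 and Col9a2 fell to -0.51 and -0.55 with no overlap. Collagen genes that fibroblasts of the meninges express are also in the meningeal list, namely Col1a1 (0.60) and Col1a2 (0.35).

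Within the RAS to ERK cascade 7 of 32 genes were higher and 6 lower (40.6%, beside 21.5% of all genes). These counts were 4 and 3 without the end libraries, and 4 and 4 without Cic-L-KO replicates 3 and 4. Rps6ka2, a kinase gene downstream of ERK, ranged from 33.97 to 40.7 CPM (median 37.2) in WT and from 48.6 to 60.4 CPM (median 51.4) in Cic-L-KO and rose by 0.51 (SE 0.0514, adjusted p = 1.02e-07), and the insulin-like growth factor receptor gene Igf1r ranged from 78.7 to 112 CPM (median 97.95) in WT and from 117 to 138 CPM (median 128) in Cic-L-KO (a log2 fold change of 0.38 with SE 0.0561, adjusted p = 3.12e-05). Braf, a kinase gene of the cascade itself, was lower, at -0.17. Among 8 genes of the fragile X protein and its partners, 1 was higher and 3 lower, and 1 was lower after the GC correction, under which Nufip1 (adjusted p = 0.103) and Nufip2 (adjusted p = 0.126) lost their calls, or without Cic-L-KO replicates 3 and 4. Without these replicates the adjusted p was 0.0803 for Nufip1 and 0.052 for Nufip2. For Nufip2 it was 0.0545 without the end libraries. Fmr1 ranged from 93.9 to 107 CPM (median 99.6) in WT and from 76.7 to 86.9 CPM (median 83.03) in Cic-L-KO without overlap (a log2 fold change of -0.27 with SE 0.0378, adjusted p = 1.58e-05).

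The direction of the calls went with the base composition of the transcripts. Across quintiles of the tested genes by GC content, the share called higher rose from 4.57% in the lowest quintile to 15.8% in the highest, and the share called lower fell from 20.4% to 4.90%. After removal, from each library, of its median shift within 20 bins of GC content, there were 9.59% higher and 9.47% lower in the lowest quintile and 10.3% and 10.2% in the highest, with 3328 genes called (20%), 1691 (10.2%) higher and 1637 (9.84%) lower. Of these 3328 genes, 2737 were also among the 3580 called without the correction, so single calls changed more than the totals. Exon length went with the calls too, with 2.91% lower in the shortest quintile and 20.7% lower in the longest before the correction, and 3.75% and 16% after it. The part of base composition and length in the calls of single genes was not tested beyond this correction. After the correction 10 granule neuron genes were lower, 10 interneuron genes higher and 42 oxidative phosphorylation genes higher with 1 lower, and the granule neuron median was -0.27 and the interneuron median 0.28.

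**Figure D4:**
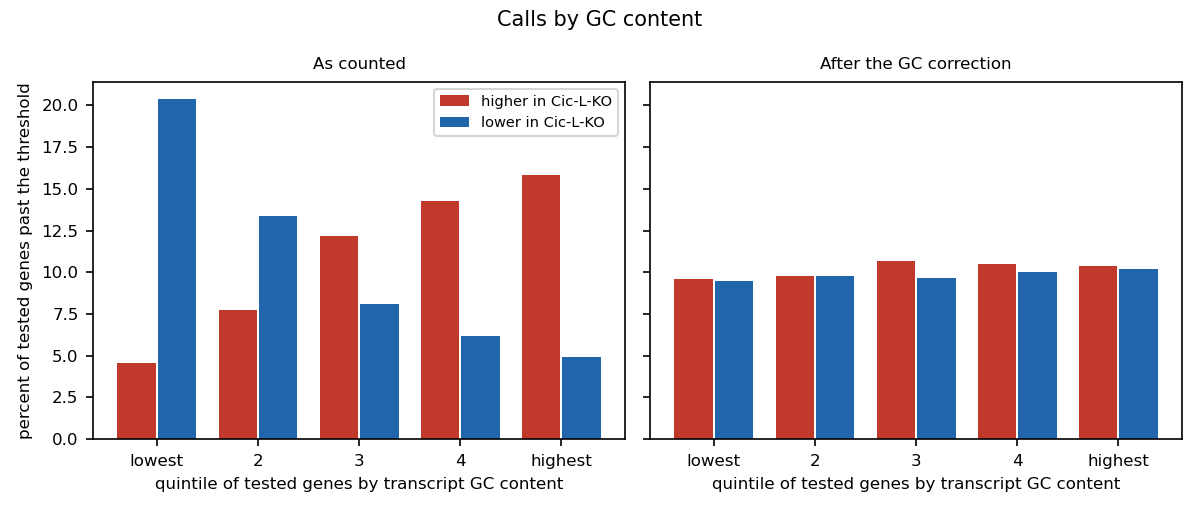
Percent of tested genes called higher (red) or lower (blue) in Cic-L-KO cerebellum (y axis, from 0) in quintiles of genes by the GC content of the longest transcript (x axis), as counted (left) and after the GC correction (right). The lower calls run from 20.4% to 4.90% as counted and from 9.47% to 10.2% after the correction.

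Genes near Cic were counted apart, since DNA beside an altered allele is inherited with it. Within 0.5 Mb of Cic on chromosome 7, 8 of 31 tested genes were higher and 2 lower (32.3%), and within 10 Mb 40 of 305 were higher and 24 lower (21%), beside 21.5% of all genes. Of the 3 nearest tested genes on each side, Pafah1b3 alone passed the test as counted. Gsk3a ranged from 97.2 to 104 CPM (median 102) in WT and from 94.2 to 102 CPM (median 98.03) in Cic-L-KO (a log2 fold change of -0.054 with SE 0.0277, adjusted p = 0.173), and was lower after the GC correction, at -0.11 (adjusted p = 0.00604). Erf, for an ETS repressor under ERK control, had a log2 fold change of 0.00015 (SE 0.0886, adjusted p = 0.999). Tmem145 had a value of 0.084 and 9130221H12Rik of 0.0082, and neither passed, while without Cic-L-KO replicates 3 and 4 Tmem145 was higher at 0.17 (adjusted p = 0.0264).

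Which of these differences set the long isoform apart from the short one was addressed by a direct test of Cic-L-KO against Cic-S-KO cerebellum, in which the WT libraries enter only the estimate of the spread. Cic-L-KO and Cic-S-KO differed at 2069 genes (12.4%), 1061 (6.38%) higher and 1008 (6.06%) lower in Cic-L-KO. Of the 24 genes with the largest differences from WT, 11 of the 12 higher and 10 of the 12 lower also differed from Cic-S-KO. Nid2, Hif3a and Nr4a2 did not pass. The 24 were chosen by their values in the same Cic-L-KO libraries, so this count partly reflects how they were chosen. Rasal1 differed by -1.74 (SE 0.108), from 12.3 to 16.8 CPM in Cic-S-KO beside 3.56 to 5.78 in Cic-L-KO. Maff lay between 0.711 and 2.56 CPM in Cic-S-KO, a difference of 2.65 (SE 0.189, adjusted p = 1.18e-10). Npy lay between 9.48 and 15.3 CPM there (-1.99, adjusted p = 4.33e-10). Neither Cic-S-KO range reached the Cic-L-KO values of its gene.

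The lists divided in this contrast, in which 6.38% of all genes were higher and 6.06% lower in Cic-L-KO. Vascular genes were higher in Cic-L-KO than in Cic-S-KO for 8 of 15, and oxidative phosphorylation genes for 19 of 85 with 1 lower. Granule neuron genes differed in 1 of 20 and interneuron genes in 3 of 17 (2 higher). Cic-S-KO against WT had 723 genes higher (4.34%) and 647 lower (3.89%). Against the WT libraries that both knockouts share, granule neuron genes were lower for 12 of 20 in Cic-S-KO and 10 of 20 in Cic-L-KO, and interneuron genes higher for 8 and 10 of 17. Purkinje cell genes were lower in Cic-L-KO than in Cic-S-KO for 9 of 25 and higher for 0, beside 9 that were higher in Cic-S-KO than in WT. Clock genes were lower for 10 of 17 and higher for 1, immediate early genes lower for 5 of 16 and higher for 0, and ribosomal protein genes lower for 12 of 76 and higher for 0. Against WT, Cic-S-KO had 6 clock genes higher and 2 lower. It had 1 immediate early gene higher and 0 lower, and 2 ribosomal protein genes higher and 0 lower. Median log2 fold changes against WT in Cic-S-KO and Cic-L-KO were 0.19 and -0.13 for clock genes. They were 0.16 and -0.24 for immediate early genes and 0.078 and 0.0038 for ribosomal protein genes.

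The same loss was then compared between regions. At 4145 of 18032 genes (23%) the change in cortex differed from that in cerebellum by a test of the interaction, 2077 (11.5%) more positive and 2068 (11.5%) more negative in cortex. In the fit over both regions 3734 genes were called in cerebellum and 7287 (40.4%) in cortex (3500 higher, 19.4%, and 3787 lower, 21%), and 1713 of them moved the same way in both, which is 45.9% of the cerebellar and 23.5% of the cortical calls, while 361 moved in opposite ways (9.67% and 4.95%). Npy was one of the latter, with a log2 fold change of 0.80 in cortex and a difference between regions of 2.35 (SE 0.149, adjusted p = 5.80e-16). Tnc also rose in cortex (0.42, difference 1.74, adjusted p = 1.70e-09). Lhpp had a value of -0.13 in cortex, and the difference was -1.24 (SE 0.087, adjusted p = 1.55e-15). Cpne4 had -0.21 in cortex and a difference of -1.62. For Maff, Kdr and Col2a1 the cortex values were 2.09, 0.79 and 1.00, and the difference between regions did not pass the test.

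Other genes changed in cortex and did not pass the test in cerebellum. Slc29a4, for a monoamine transporter, ranged from 38.8 to 51.9 CPM (median 48.2) in WT and from 42.1 to 62.6 CPM (median 51.3) in Cic-L-KO in cerebellum (a log2 fold change of 0.12 with SE 0.0745, adjusted p = 0.285) and had 3.06 in cortex, and Tspan11, for a tetraspanin, had -0.14 and -2.75. In the ERK response list 12 genes were higher and 4 lower in cortex, where 19.4% of all genes were higher and 21% lower. The effect differed between regions for 5 of 25, beside 23% of all genes, so the list did not stand out in this count. Each of the 5 was more positive in cortex. They were Etv4 (0.78), Lrig1 (0.75), Spred3 (0.48), Spry3 (0.33) and Myc (0.59). Of the oxidative phosphorylation genes 9 were higher and 15 lower in cortex, and 28 of 85 differed between regions. Vascular genes were higher for 7 of 15 in cortex too, with 1 of 15 differing between regions, Cdh5 (-0.41).

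**Figure D5:**
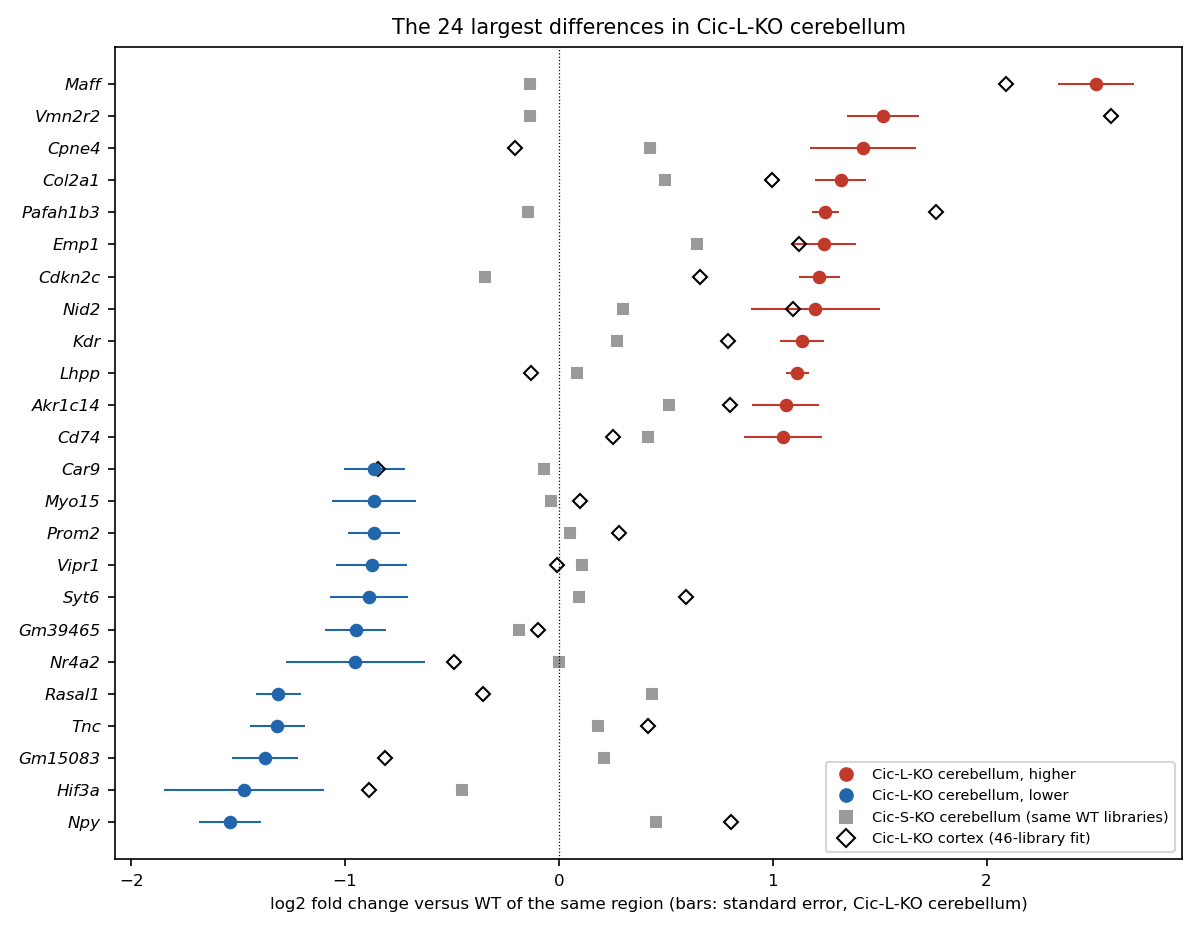
Log2 fold change against WT (x axis) of the 12 largest rises and 12 largest falls in Cic-L-KO cerebellum (circles with standard error bars), with Cic-S-KO cerebellum against the same WT libraries (grey squares) and Cic-L-KO cortex against cortex WT (open diamonds). Maff is at 2.51, -0.13 and 2.09, and Npy at -1.54, 0.46 and 0.80.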

How the data were processed

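RNA-seq of polyA-selected RNA from flash-frozen cerebellum gave 16 libraries of Cic-L-KO and WT mice, and 7 of Cic-S-KO. The deposited values are raw counts, whole numbers for each gene and library, with no normalization by the authors. Reads were aligned with STAR 2.7 to GRCm38.p6, per the submitters' processing notes; the counting program, the annotation and the use of strand are not given in the sources used here. Of 50789 gene IDs, 50725 matched GENCODE M21 without the version and supplied names, GC content and length. Genes on chromosome 1 are not analysed here.

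From the counts, edgeR 4.0.16 in R 4.3.3 was run on all 23 cerebellum libraries (filterByExpr, TMM, robust quasi-likelihood test, Benjamini-Hochberg, adjusted p under 0.05), and on 46 brain libraries for the difference between regions. The standard error is the log2 fold change over the square root of F. No library pair of a genotype agreed within sampling noise (lowest chi-square per degree of freedom 4.44). Male and female libraries were told apart by 4 Y-linked genes. The procedure was tested on simulated data.

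Named genes are Cic, Atxn1 and Atxn1l, the 12 largest changes in each direction with a mean of at least 1 log2 CPM, the 6 smallest p in each direction, 4 for each other contrast, up to 4 called genes of each list and the 3 nearest genes on each side of Cic. Other list members are named with their values where the text turns on them. Members and lists were chosen with earlier results of these data known. Alternatives were DESeq2 1.42.0, other normalization and filters, a sex or GC term, the replicate block and omission of libraries.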

Additional observations from a re-analysis of the deposited data

Results flagged for a closer look

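In 100 groups of 8 libraries examined for the named genes, 9 had a library set apart from its group by a gap that was large against the group's range, and chance would flag about 5. WT replicate 1 was the lowest of its group for Atxn1l (64.1 CPM) and the highest for Cpne4 (5.63 CPM). In Cic-L-KO, replicate 1 stood apart for Cotl1 (163.0 CPM), replicate 5 for Dusp7 (29.5 CPM) and Myo15 (2.54 CPM), replicate 4 for Erf (17.3 CPM) and Vgf (120.1 CPM), replicate 8 for Gm39465 (6.61 CPM) and replicate 7 for Tnc (8.46 CPM).

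The change in Cic-L-KO differed between cortex and cerebellum for 20 of 49 named genes examined by the interaction test, beside 23% of all genes. Some of the 49 were named for a small p in this same test or for a large change in cerebellum. Their count therefore partly reflects how they were chosen. The change in Cic-L-KO was more positive in cortex, by the following log2 differences, for 5930438M14Rik (3.55), the monoamine transporter gene Slc29a4 (2.95), Npy (2.35), Tnc (1.74), Syt6 (1.49), Prom2 (1.15), Rasal1 (0.96) and Vipr1 (0.88). Smaller differences of this sign were those of Etv4 (0.78), Cic (0.73), Nab2 (0.61), Atxn1 (0.54), Pafah1b3 (0.53) and Tmem145 (0.32). It was more negative in cortex for Tspan11 (-2.61), Cpne4 (-1.62), Lhpp (-1.24), Cd74 (-0.79), Cdkn2c (-0.55) and Crebrf (-0.19). Pafah1b3 rose in both regions and more in cortex, whereas Npy, Tnc, Syt6 and Prom2 fell in cerebellum and had positive values in cortex.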

How the results depend on the processing

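The count of 3580 genes called between Cic-L-KO and WT ranged from 2950 to 4019 when each library was left out in turn. It was 2159 in males alone and 1591 in females alone, each 4 libraries against 4 within a fit of all cerebellum libraries by genotype and sex. It was 2694 without the 2 libraries at the ends of the first component and 2585 without Cic-L-KO replicates 3 and 4. These 4 settings were chosen after seeing the data. Under a size limit of 0.5 on the log2 scale it was 505, of which 78.8% were higher beside 50.8% without the limit, and the counts against Cic-S-KO and between regions fell to 423 and 1461. DESeq2 gave 3963, no filter on low counts 2797, the GC correction 3328 (2737 of them among the 3580) and a term for sex 3640. With the replicate block 2932 genes were called; same-numbered libraries did not deviate together (correlations from -0.19 to 0.30), and 2 of 8 matched their own number best, so the numbers were not taken as pairs. Over all alternatives no named gene reversed: 5204 gene values stayed on their side of the threshold, 220 lost the call and 39 gained it. Depth limits lists with few reads, such as brainstem genes, of which 8 of 12 could be tested.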
